A study of Drosophila melanogaster with 21 samples.

Results

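The 7 genes described here encode proteins with which a fly stores and releases fat. They are the lipase genes *bmm*, *Hsl*, *CG5966* and *Lip4*, the lipid droplet coat genes *Lsd-1* and *Lsd-2*, and the triglyceride synthesis gene *mdy*. They were chosen by their function, with earlier results of these data known. All 7 were found by current gene symbol in a table of 17559 genes. The table gives RPKM, the reads of a gene divided by its length and by a library size. That size was 0.813 to 1.13 times the reads on genes of the head. The table covers 21 heads of single female *Drosophila melanogaster*, with a library for each head. Of these, 6 heads were collected 1 h and 5 heads 4 h after starved flies had been trained to associate octanol with sucrose. The references were 5 heads of starved flies without training or sugar, labelled as hour 0, and 5 heads of naive flies, which were fed and untrained. The comparisons with starved heads address gene expression after training beyond that due to starvation, and the study describes its untrained fed flies as age matched. No genotype, transgene or age is given in the labels. For its memory test a day after training, the study fed flies for some hours after training. The sources used here do not say whether the trained flies sequenced here were fed again before collection. The odor, the sucrose, the handling, any food after training and the time since training therefore cannot be told apart.

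In *Drosophila* most fat is kept as triglyceride in lipid droplets of the fat body, a tissue that does the work of mammalian liver and adipose tissue and that also lines the inside of the head. Lipases release fatty acids from the droplets during fasting, perilipins on the droplet surface control their access, and diglyceride acyltransferases refill the droplets when food is present. The hormone AKH, the fly counterpart of glucagon, promotes this release through protein kinase A.

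Coordinates are those of the BDGP6.54 annotation, which uses the dm6 assembly, and all 7 genes are protein coding. *bmm* (FBgn0036449) lies at 3L:14776496-14786412, *Hsl* (FBgn0034491) at 2R:20257650-20261726 and *CG5966* (FBgn0029831) at X:5988791-5992640. *Lip4* (FBgn0032264) lies at 2L:10527572-10531778 and *mdy* (FBgn0004797) at 2L:16816660-16826964. *Lsd-1* (FBgn0039114) lies at 3R:23763857-23766662 and *Lsd-2* (FBgn0030608) at X:15069127-15076220. *Lsd-1* shares 144 exonic bases with *CG10214* on the opposite strand, and the other 6 genes share 0 exonic bases with any gene. Because the libraries did not keep strand, reads in the shared bases cannot be assigned, but *CG10214* had 4.99 to 21.5% of the reads of *Lsd-1* in all heads but starved replicate 3, where it had 330 reads and *Lsd-1* 205.

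The heads held 36019295 to 67792567 reads on genes, so the rarest of the 7 transcripts still rested on at least 67 reads in each head. Tests were run with limma on log2(RPKM + 1), two-sided, over the 10501 genes that reached 1 RPKM in 5 or more heads, and a change was called where the Benjamini-Hochberg adjusted p was below 0.05. All 7 genes passed the filter on low values. The markers of neurons and photoreceptors were well above 0 in every head, whereas the summed markers of the midgut reached at most 3.60 RPKM and those of the ovary at most 10.8 RPKM. Of the 21 heads, 3 stood apart by their median correlation with the other heads, which was 0.859 in naive replicate 2, 0.909 in starved replicate 3 and 0.919 in 1 h replicate 3. Starved replicate 3 had a summed level of 7 fat body markers of 146 RPKM, against 1954 to 11413 RPKM in the other starved heads. Naive replicate 2 had a *roX2* level of 54.2 RPKM, against at most 0.830 RPKM elsewhere. *roX2* is a marker of male dosage compensation, although all heads are described as female. The source of this RNA was not tested. The summed fat body markers, dominated by the yolk protein genes *Yp1*, *Yp2* and *Yp3*, were 626 to 21386 RPKM at 1 h, 1696 to 9043 RPKM at 4 h and 146 to 11413 RPKM in starved heads, against 29134 to 64249 RPKM in naive heads. Against naive, 0 of these 7 markers were higher at 1 h, at 4 h or in starved heads. The fall passed the test for 5 at 1 h, 2 at 4 h and 3 in starved heads. Of all tested genes 8.98%, 3.40% and 1.51% were called in these comparisons. Against starved, 0 of the markers passed the test at either time. Summed photoreceptor markers, dominated by *ninaE*, were 13428 to 15460 RPKM at 1 h and 14999 to 16499 RPKM at 4 h, against 10023 to 13506 RPKM in starved heads. *ninaE* was the only 1 of 5 such markers that passed the test at 4 h against starved, where it rose by 0.45 on the log2 scale (limma, adjusted p = 0.0464). Against starved, 1 of the 5 markers was higher at 1 h, with a median of −0.096, and 4 were at 4 h, with a median of 0.0080. Summed hemocyte markers were 31.9 to 47.8 RPKM at 4 h, against 50.4 to 86.0 RPKM in naive heads, and summed muscle markers were 139 to 381 RPKM at 4 h, against 194 to 674 RPKM in starved heads. At 4 h against naive the glial marker *Gs2* fell by 0.68 (limma, adjusted p = 0.0328) and the hemocyte marker *NimC1* by 0.49 (adjusted p = 0.0463). In that comparison 2 of the 5 glial markers were higher, with a median of −0.029, and 0 of the 4 hemocyte markers were, with a median of −0.80. The part of these shifts in the results was not tested. The fat body markers did not fall alike. From naive to starved heads the median of *Yp2* went from 11528 to 225 RPKM and that of *apolpp* from 751 to 143 RPKM. The median of *Apoltp* went from 58.8 to 41.9 RPKM and that of *fat-spondin* from 77.5 to 71.4 RPKM. In a whole head, fewer fat body cells and less RNA in each such cell cannot be told apart.

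Of the 4 lipase genes, 2 were lower after training than in starved heads. *CG5966* fell at 1 h and at 4 h and *Lip4* fell at 4 h. *Hsl* was higher at 1 h than in naive heads by a small margin. No other test of the 7 genes passed the threshold.

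**Figure D1:**
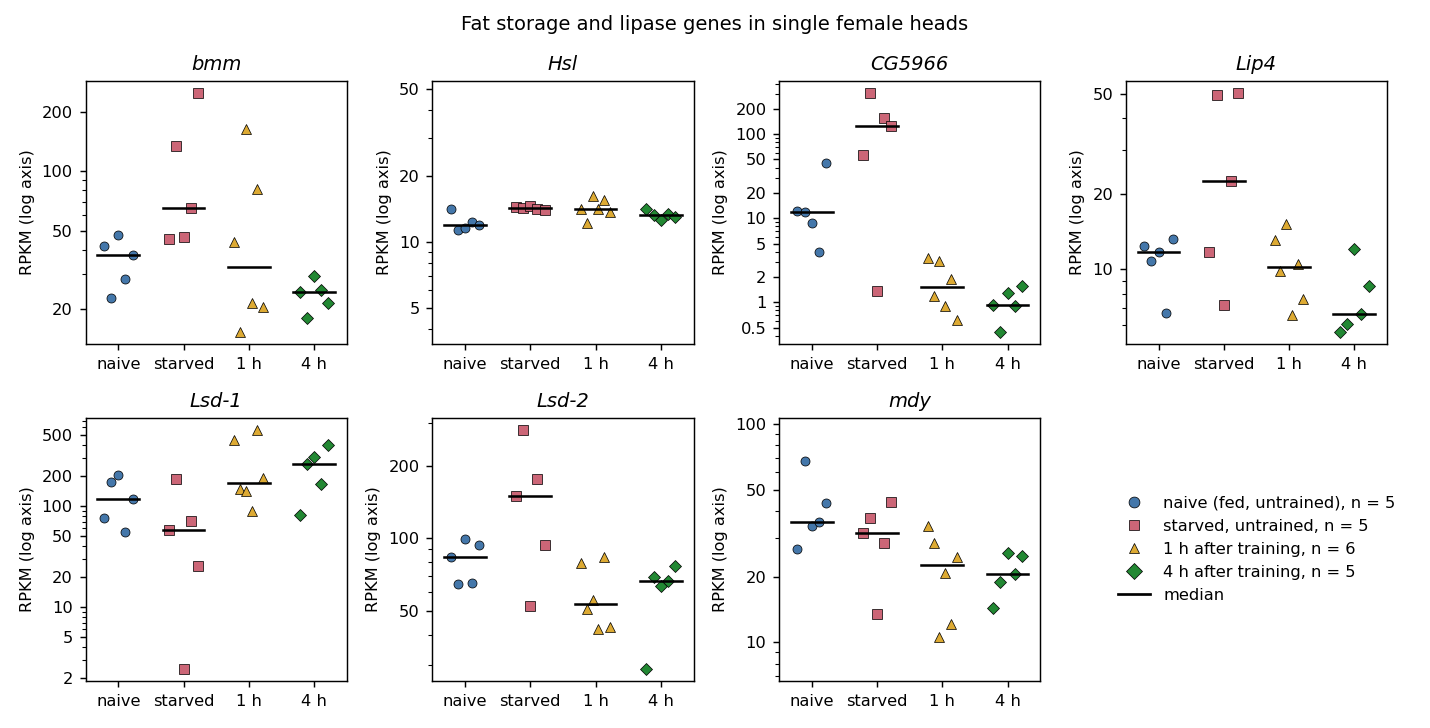
RPKM of each of the 7 genes (log axes, scaled for each gene) in every head, by group from naive to 4 h after training, with a line at the median of each group. *CG5966* lies between 0.440 and 3.38 RPKM in the trained heads and between 57.2 and 309 RPKM in 4 of the 5 starved heads, with starved replicate 3 at 1.35 RPKM, while *Hsl* stays between 11.4 and 16.3 RPKM in all heads.

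*CG5966*, a predicted triglyceride lipase of the pancreatic lipase family, had the widest range of the 7 genes, with 0.440 RPKM in the lowest and 309 RPKM in the highest head. Naive heads had 12.0, 11.9, 8.85, 3.94 and 45.7 RPKM, and starved heads 57.2, 309, 1.35, 155 and 126 RPKM. At 1 h the 6 heads ran from 0.607 to 3.38 RPKM with a median of 1.54 RPKM, and at 4 h the heads had 0.927, 0.440, 1.30, 0.896 and 1.57 RPKM. All 11 trained heads were thus below every naive head and below 4 of the 5 starved heads, and starved replicate 3 alone lay among the trained heads. The log2 fold change was −4.52 ± 0.86 (SE) at 1 h against starved (limma, adjusted p = 0.0172) and −4.94 ± 0.90 at 4 h against starved (adjusted p = 0.00424). Because 1 was added to each RPKM, these values understate the change of a gene at such low levels. Against naive heads the fold change was −2.30 ± 0.86 at 1 h (adjusted p = 0.0932) and −2.72 ± 0.90 at 4 h (adjusted p = 0.106), and neither passed the threshold although the heads did not overlap.

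Starved replicate 3 weighed on each test of *CG5966* with starved heads. Without it, starved heads were higher than naive heads by 3.39 (limma, adjusted p = 0.00500), against 2.22 ± 0.90 (adjusted p = 0.195) with it, and the fold change against starved was −5.70 at 1 h and −6.11 at 4 h. The fall at 4 h passed the threshold in all 10 fits that left out a head of that comparison, with adjusted p from 7.62e-06 to 0.0163. The fall at 1 h passed in 8 of 11 such fits and missed it without starved replicate 2, 4 or 5, with an adjusted p of at most 0.0663. It also missed it in 3 of 10 other settings, among them voom on reads recovered from the RPKM values (adjusted p = 0.0524) and a fit of only the compared groups (adjusted p = 0.158).

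*Lip4*, a predicted acid lipase, had 12.4, 10.8, 11.7, 6.72 and 13.3 RPKM in naive heads and 11.8, 49.6, 7.22, 22.5 and 50.4 RPKM in starved heads. It ran from 6.58 to 15.1 RPKM with a median of 10.2 RPKM at 1 h, and the 4 h heads had 5.62, 6.08, 12.1, 6.66 and 8.61 RPKM. Starved replicates 2, 4 and 5 exceeded every other head of the study, whereas starved replicates 1 and 3 lay within the range of the naive heads. The log2 fold change at 4 h against starved was −1.43 ± 0.40 (limma, adjusted p = 0.0386). This call was kept in 3 of the 10 fits that left out a head, those without starved replicate 1, starved replicate 3 or 4 h replicate 4, and the adjusted p over all 10 ran from 0.00776 to 0.116. It was also lost in 3 of 10 other settings, among them no filter on low values (adjusted p = 0.0636) and a fit of only the compared groups (adjusted p = 0.110). At 1 h the fold change against starved was −1.05 ± 0.38 (adjusted p = 0.234), and in starved against naive heads it was 0.97 ± 0.40 (adjusted p = 0.202).

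*bmm* encodes Brummer, the fly counterpart of adipose triglyceride lipase, which is needed to mobilize stored fat. Its level was 42.0, 22.9, 47.7, 28.5 and 37.7 RPKM in naive heads and 45.7, 135, 46.7, 65.2 and 249 RPKM in starved heads. At 1 h it ran from 15.3 to 164 RPKM with a median of 32.7 RPKM, and at 4 h it was 24.5, 18.1, 29.5, 25.1 and 21.4 RPKM. The 1 h heads were the most divided, with replicates 3 and 5 at 164 and 81.5 RPKM and replicates 2, 4 and 6 between 15.3 and 21.5 RPKM. All 4 h heads were below all starved heads, and the log2 fold change of −1.83 ± 0.54 narrowly missed the threshold (limma, adjusted p = 0.0503). That adjusted p was 0.0342 without starved replicate 1 and 0.0408 without starved replicate 3, and 0.0680 to 0.128 when any of the other 8 heads was left out. The threshold was passed in 5 of 10 other settings, with adjusted p from 0.00303 to 0.0995 over all 10. At 1 h the log2 fold change against starved was −1.08 ± 0.52 (limma, adjusted p = 0.369). Starved heads differed from naive heads by 1.29 ± 0.54 (adjusted p = 0.209). Leaving out 1 h replicate 3, the head with the most *bmm* at 1 h, gave −1.48 at 1 h against starved (adjusted p = 0.170). That was the lowest adjusted p of the 11 fits that left out a head, and the highest was 0.569. Against naive heads the 4 h heads differed by −0.54, with a 95% interval from −1.68 to 0.60, so a change of *bmm* relative to fed flies was not detectable with these heads.

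*Hsl*, the hormone-sensitive lipase gene, was the steadiest of the 7. It had 14.2, 11.4, 11.6, 12.4 and 12.0 RPKM in naive heads and 14.4, 14.3, 14.6, 14.2 and 14.0 RPKM in starved heads. At 1 h it ran from 12.3 to 16.3 RPKM with a median of 14.2 RPKM, and at 4 h it was 14.1, 13.3, 12.6, 13.4 and 13.1 RPKM. Apart from naive replicate 1, all naive heads lay below all starved heads. At 1 h *Hsl* was higher than in naive heads by 0.21 ± 0.061 on the log2 scale (limma, adjusted p = 0.0410), and in starved heads it was higher by 0.20 ± 0.063 without passing the threshold (adjusted p = 0.0968). The 1 h call was kept in 3 of 11 fits that left out a head, was lost without naive replicate 2 (0.18, adjusted p = 0.108) or 1 h replicate 3 (0.17, adjusted p = 0.0873), and was lost when all heads were scaled to the same 75th percentile (adjusted p = 0.111). *Hsl* at 4 h differed from starved heads by −0.10, with a 95% interval from −0.23 to 0.036.

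The lipid droplet coat genes *Lsd-1* and *Lsd-2* encode the perilipins of the fly. *Lsd-1* protein is a target of protein kinase A at the droplet surface and is needed for hormone-driven lipolysis, whereas *Lsd-2* protein shields stored triglyceride. *Lsd-1* had 76.8, 173, 201, 54.9 and 117 RPKM in naive heads and 57.7, 185, 2.44, 71.1 and 25.4 RPKM in starved heads. At 1 h it ran from 88.1 to 568 RPKM with a median of 169 RPKM, and at 4 h it was 81.3, 259, 308, 164 and 398 RPKM. All trained heads exceeded 4 of the 5 starved heads, starved replicate 2 being the exception. The log2 fold change against starved was 2.51 ± 0.76 at 1 h (limma, adjusted p = 0.147) and 2.51 ± 0.80 at 4 h (adjusted p = 0.0658), and neither passed the threshold. Without starved replicate 3, the fold change at 4 h was 1.65 (adjusted p = 0.122), and without starved replicate 2 it was 3.09 (adjusted p = 0.0313).

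*Lsd-2* had 83.7, 64.9, 99.0, 65.6 and 93.7 RPKM in naive heads and 150, 281, 52.4, 176 and 93.7 RPKM in starved heads. At 1 h it ran from 42.3 to 83.8 RPKM with a median of 53.3 RPKM, and at 4 h it was 28.8, 69.1, 63.6, 66.7 and 76.8 RPKM. Starved replicates 1, 2 and 4 were the highest heads of the study, and starved replicate 3 lay among the trained heads. The log2 fold change against starved was −1.17 ± 0.34 at 1 h (limma, adjusted p = 0.127) and −1.15 ± 0.35 at 4 h (adjusted p = 0.0582). Both comparisons passed the threshold without starved replicate 3, with −1.50 at 1 h (adjusted p = 0.0239) and −1.47 at 4 h (adjusted p = 0.0116). No other head, when left out, brought either below the threshold.

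The groups differed in the balance of *Lsd-1* and *Lsd-2*. Around the group means of log2(RPKM + 1), the correlation of the pair was 0.90 over 21 heads, or 0.86 without starved replicate 3, and both levels of a head come from the same library. Naive replicate 2 was an exception, with the lowest naive *Lsd-2* level, 64.9 RPKM, beside an *Lsd-1* level of 173 RPKM. The ratio of *Lsd-1* to *Lsd-2* RPKM, chosen after its values were seen and so described without a test, was 0.837 to 2.67 in naive heads, 0.0465 to 0.659 in starved heads, 2.08 to 6.78 at 1 h and 2.45 to 5.18 at 4 h. Starved heads had the lowest ratios without overlap with any other group, also when starved replicate 3 was set aside. Naive heads reached into the range of the trained heads only through replicate 2, the head with the high *roX2* level.

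**Figure D2:**
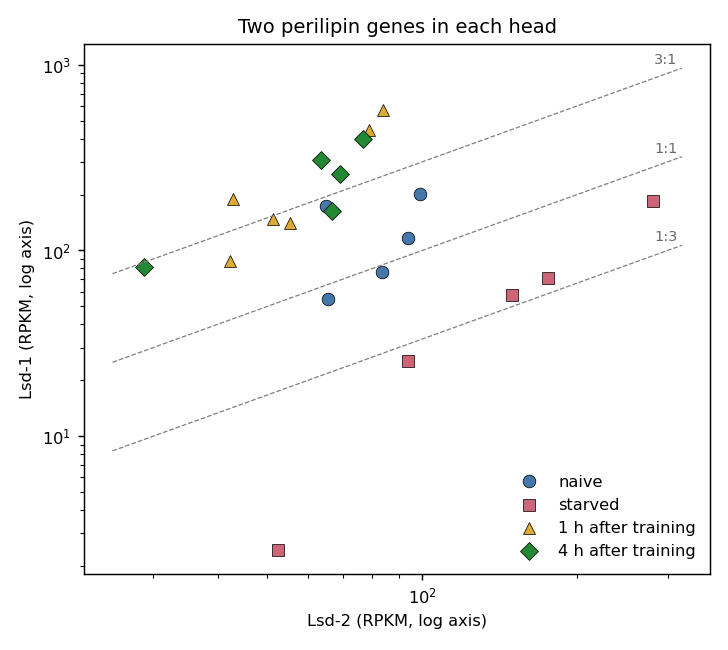
*Lsd-1* against *Lsd-2* RPKM in each of the 21 heads (log axes), with dashed lines at constant ratio. Starved heads lie below the line of equal level with ratios of 0.0465 to 0.659, and trained heads lie above it with ratios of 2.08 to 6.78.

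*mdy* encodes Midway, the diglyceride acyltransferase of the DGAT1 family, which makes the last step of triglyceride synthesis. It had 26.9, 67.4, 34.0, 35.7 and 43.4 RPKM in naive heads and 31.8, 37.0, 13.5, 28.5 and 44.0 RPKM in starved heads. At 1 h it ran from 10.6 to 34.3 RPKM with a median of 22.6 RPKM, and at 4 h it was 14.3, 18.8, 25.7, 20.6 and 24.9 RPKM. All 4 h heads lay below all naive heads, while the starved heads overlapped every other group. The log2 fold change against naive was −0.94 ± 0.31 at 1 h (limma, adjusted p = 0.0647) and −0.92 ± 0.33 at 4 h (adjusted p = 0.132), and neither passed the threshold. Without naive replicate 2, the highest naive head, these values were −0.75 (adjusted p = 0.172) and −0.73 (adjusted p = 0.279). The 1 h comparison passed the threshold without naive replicate 1 (−1.08, adjusted p = 0.0368), without 1 h replicate 1 (adjusted p = 0.0470) and without 1 h replicate 2 (adjusted p = 0.0448).

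Among starved heads the 7 genes did not move as a block. Starved replicate 3 had the lowest level of *CG5966*, *Lip4*, *Lsd-1*, *Lsd-2* and *mdy* in its group and the highest of *Hsl*, and its *bmm* level of 46.7 RPKM was close to that of starved replicate 1. In this head the fat body markers were low together with *Lsd-1* and *CG5966*. Over 21 heads, the summed fat body markers correlated around the group means with *Lsd-1* (r = 0.51) and *CG5966* (r = 0.50). Without starved replicate 3 these correlations were 0.20 for *Lsd-1* and 0.066 for *CG5966*. The part of the fat body markers in the levels of starved replicate 3 was not tested. Around the group means, *CG5966* and *Lip4* correlated with r = 0.81 over 21 heads (0.73 without starved replicate 3), *bmm* and *Lip4* with r = 0.69 (0.69), and *Hsl* and *mdy* with r = −0.71 (−0.77). *CG5966* also correlated with *Lsd-1*, r = 0.75 (0.52), and with *Lsd-2*, r = 0.70 (0.52).

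**Figure D3:**
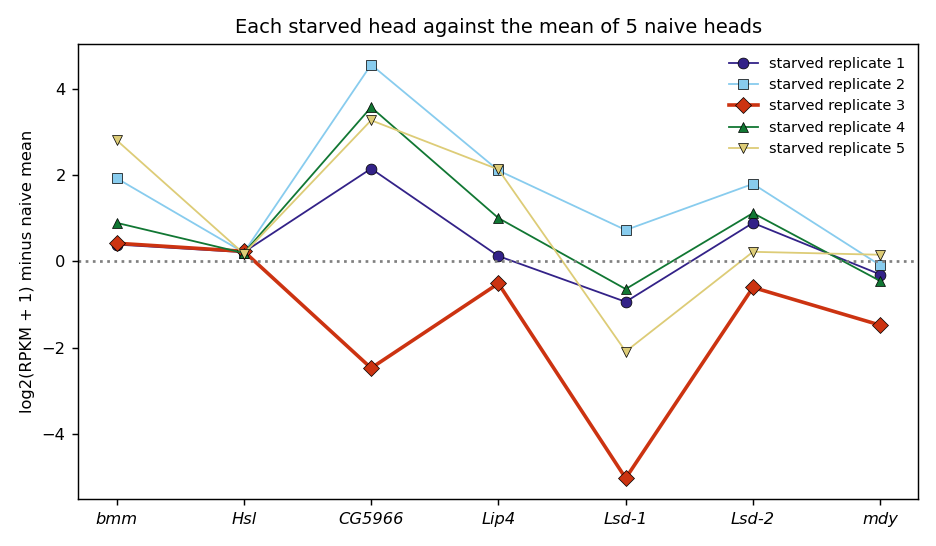
log2(RPKM + 1) of each gene in each starved head minus the mean of the 5 naive heads, with a line for each starved head. Starved replicate 3 lies below the naive mean for *CG5966*, *Lip4*, *Lsd-1*, *Lsd-2* and *mdy*, while the other 4 starved heads lie above it for *bmm*, *Hsl*, *CG5966*, *Lip4* and *Lsd-2*.

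Counted over the 7 genes, starved heads compared to naive heads gave 0 calls with limma and 0 with voom, where 1.51% of all tested genes were called. At an unadjusted p below 0.05 there were 4 of 7, against 19.4% of all tested genes. The median log2 fold change of the 7 was 0.69, against a median of −0.0015 over all tested genes. The 7 genes were chosen with earlier results of these data known. The shares and medians given here and below therefore describe the set and do not test it. At 1 h against starved 1 of 7 was called, *CG5966*, where 0.105% of tested genes were called lower and 0.552% were called in either direction, with medians of −1.05 for the 7 genes and −0.0046 for all. At 4 h against starved 2 of 7 were called, *CG5966* and *Lip4*, where 2.75% were called lower and 6.37% in either direction, with medians of −1.15 and 0.0016. In the same comparison 1 of 7 did not overlap, *bmm*, against 9.63% of tested genes.

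At 1 h against naive 1 of 7 was called, *Hsl*, where 5.13% of tested genes were called higher and 8.98% in either direction. The 4 h heads gave 0 of 7 calls against naive with limma and 0 with voom, where 3.40% of tested genes were called, and 2 of 7 had an unadjusted p below 0.05, where 20.1% of tested genes did. There, *CG5966* and *mdy* did not overlap, against 8.92% of tested genes, and at 1 h against naive *CG5966* alone did not, against 4.72%. Between 4 h and 1 h heads 0 of 7 were called with limma, 0 with voom and 0 at an unadjusted p below 0.05, where 0.0857% of tested genes were called and 12.8% had such a p. The interval of that difference still reached from −2.22 to 1.39 for *CG5966* and from −1.60 to 1.60 for *Lsd-1*, so sizable changes between these times were within the error. The starved heads serve both times after training, as do the naive heads, so the comparisons that share them are not independent.

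**Figure D4:**
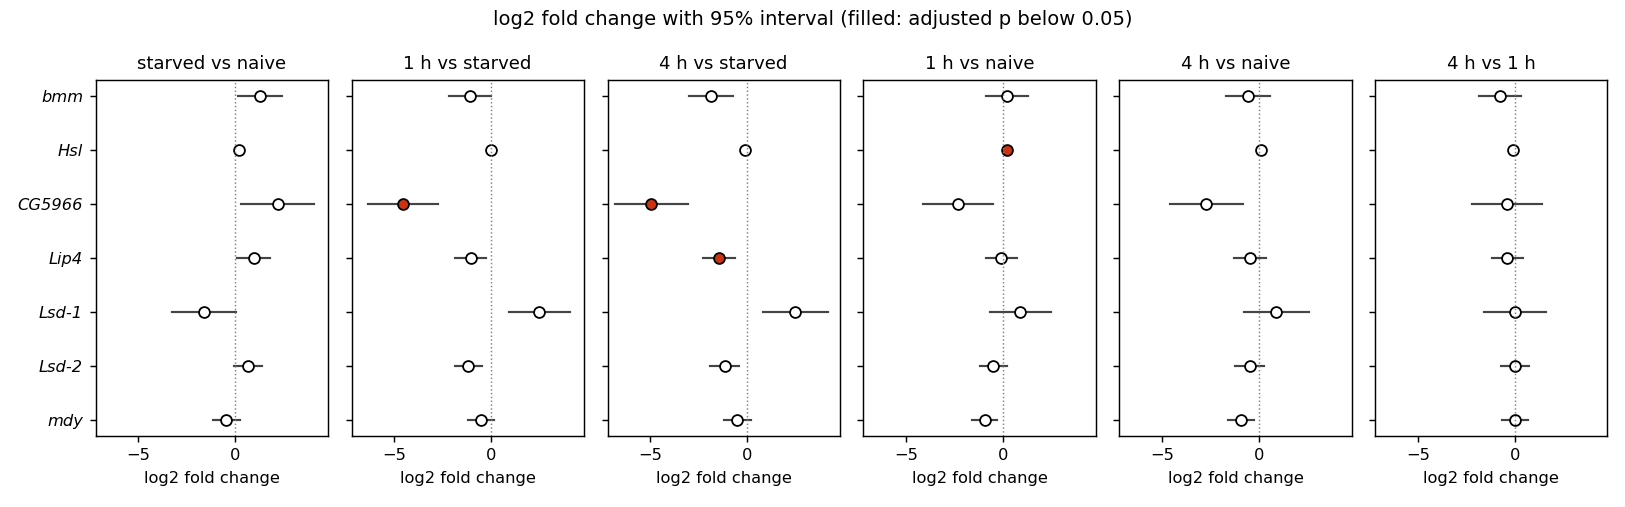
log2 fold changes of the 7 genes with 95% intervals from limma in each of 6 comparisons, filled where the adjusted p was below 0.05. Filled points are *CG5966* at 1 h (−4.52) and 4 h (−4.94) and *Lip4* at 4 h (−1.43) against starved, and *Hsl* at 1 h against naive (0.21).

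**Figure D5:**
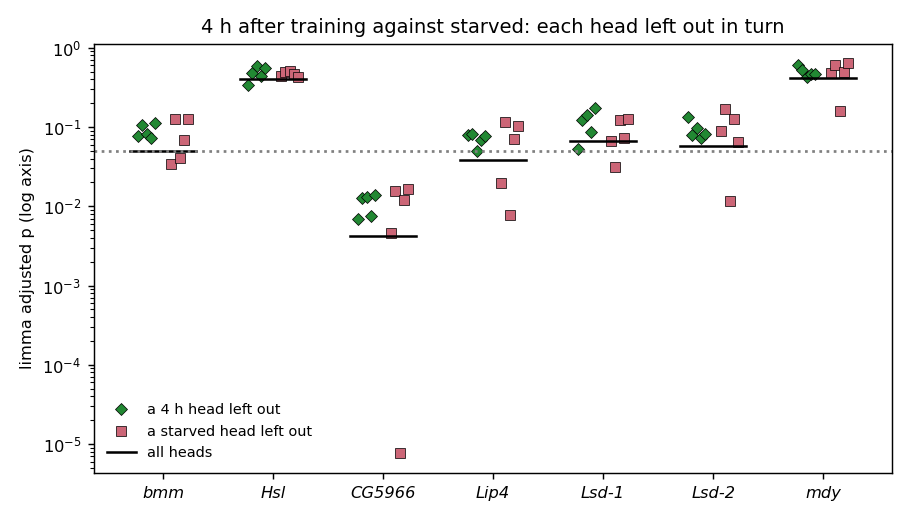
Adjusted p (log axis) of each gene at 4 h against starved when each head of these groups was left out in turn, with a bar at the value from all heads and a dotted line at the threshold. *CG5966* stays below the line in all 10 fits, *Lip4* in 3, and *bmm*, *Lsd-1* and *Lsd-2* cross it in 2, 1 and 1.

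Other genes of fat metabolism were counted in 4 lists, which were also chosen with earlier results of these data known. The table holds 46 other lipase genes, of which 15 passed the filter on low values, and 1 of the 15 was called at 4 h against starved, where 6.37% of all tested genes were, and 1 at 1 h against naive, where 8.98% were. *PAPLA1*, a phospholipase gene, fell at 4 h against starved by 0.61 on the log2 scale (adjusted p = 0.0430), with 24.9 ± 2.01 RPKM at 4 h and 39.8 ± 12.8 RPKM in starved heads (SD, n = 5 each). *puml*, a gene related to the lipase co-activator ABHD5 of mammals, rose at 1 h against naive by 0.79 (adjusted p = 0.0294), with 42.0 ± 18.6 RPKM at 1 h (n = 6) and 22.4 ± 4.45 RPKM in naive heads (n = 5). The *PAPLA1* call was kept in 2 of 10 fits that left out a head and the *puml* call in 4 of 11, and *puml* missed the threshold without 1 h replicate 3, its highest 1 h head (0.62, adjusted p = 0.0537). The median of the 15 at 4 h against starved was −0.21, against 0.0016 over all tested genes.

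Of 18 tested genes of fatty acid and triglyceride synthesis, 1 was called at 1 h against starved, where 0.552% of all tested genes were, and 1 at 1 h against naive, where 8.98% were, and both calls were of *SCAP*, which escorts the lipogenic factor SREBP. The fatty acid synthase genes *FASN1* and *FASN3* were not analysed here. It had 29.2 ± 2.86 RPKM at 1 h, against 23.2 ± 2.15 RPKM in starved and 20.2 ± 1.06 RPKM in naive heads. It rose at 1 h by 0.32 against starved (limma, adjusted p = 0.0485) and by 0.51 against naive (adjusted p = 0.00102), and its 1 h heads overlapped neither group. The call against naive was kept in all 11 fits that left out a head, and that against starved in 5 of 11, with an adjusted p of 0.0696 without 1 h replicate 3. The median of the 18 genes at 1 h was 0.46 against starved and 0.49 against naive, with 14 and 13 of them positive, and that over all tested genes was −0.0046 and −0.014.

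Among 7 genes of other lipid droplet proteins, 1 was called at 1 h against starved, 1 at 1 h against naive and 1 at 4 h against starved, where 0.552%, 8.98% and 6.37% of all tested genes were. *Pcyt1*, which controls the supply of phosphatidylcholine for droplet surfaces, rose at 1 h by 1.36 against starved (limma, adjusted p = 0.0468) and by 1.30 against naive (adjusted p = 0.0160). Its lowest 1 h head had 59.7 RPKM, above the highest starved head at 56.4 RPKM and the highest naive head at 57.8 RPKM. Its call against naive was kept in all 11 fits that left out a head and its call against starved in 4 of 11, and both calls were kept without 1 h replicate 3, its highest head. *Fitm*, a gene of droplet formation, fell at 4 h against starved by 0.35 (adjusted p = 0.0395), with 14.1 ± 0.358 RPKM at 4 h and 18.4 ± 2.41 RPKM in starved heads, a call kept in 3 of 10 such fits.

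Of 13 tested regulators of fat mobilization, 2 were called at 4 h against starved, where 6.37% of all tested genes were, and 2 at 1 h against naive, where 8.98% were. The insulin receptor gene *InR* was not analysed here. *sug*, a transcription factor gene known for its response to dietary sugar, rose at 4 h against starved by 3.37 ± 0.62 (limma, adjusted p = 0.00444). Its 4 h heads ran from 24.3 to 104 RPKM and its starved heads from 0.860 to 24.2 RPKM, and the groups did not overlap. *Pka-C1*, the catalytic subunit gene of protein kinase A, fell by 0.28 in that comparison (adjusted p = 0.0335). At 1 h against naive, *bigmax*, the partner of the sugar sensor Mondo, rose by 0.67 (adjusted p = 0.0134), and the transcription factor gene *Atf3* rose by 0.54 (adjusted p = 0.0190). The *sug* and *bigmax* calls were kept in every fit that left out a head, that of *Atf3* in 10 of 11 and that of *Pka-C1* in 3 of 10.

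For each of the 7 genes the 3 tested genes with the most similar levels over the 21 heads were identified by Pearson correlation of log2(RPKM + 1), which is given as a description since the heads share groups and all levels of a head come from the same library. *CG5966* was most like *whd* (r = 0.92), the carnitine palmitoyltransferase gene of fatty acid oxidation, *CG11777* (0.91) and *klu* (0.89). *whd* had 42.8 ± 8.69 RPKM at 1 h and 38.3 ± 8.45 RPKM at 4 h, against 128 ± 48.0 RPKM in starved heads. *Lip4* was most like *klu* (0.91), *GIIIspla2* (0.89), a secreted phospholipase gene, and *CG5805* (0.86), and *GIIIspla2* ran from 14.2 to 415 RPKM in starved heads and from 10.3 to 19.7 RPKM in naive heads. *bmm* was most like *RhoGEF2* (0.93), *asRNA:CR45144* (0.91) and *PAPLA1* (0.91).

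*Lsd-2* was most like *lncRNA:CR45034* (0.89), the acyl-CoA oxidase gene *Acox57D-p* (0.88) and *CG5966* (0.84). *Lsd-1* shared its pattern with *CG13912* (0.93), *CG10214* (0.92), its overlapping neighbour, and *CG13607* (0.88). Only the genes most like *Lsd-2* included another of the genes described here, *CG5966*. *Hsl* was closest to *slim* (0.95), *CG16721* (0.94) and *CG11658* (0.94), and *mdy* to *CG13280* (0.97), *mRpL15* (0.95) and *CG3420* (0.95).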

How the data were processed

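Single female fly heads were collected after the behavioral treatment, and non-stranded polyA libraries were made from each. Per the labels' processing notes the authors used CASAVA 1.8.2, TopHat2 2.0.13 and edgeR 3.18.1 with dm6, and they deposited 1 table of RPKM for 17559 genes in 21 heads. Every RPKM value was a whole multiple of the value of 1 read (tolerance 0.001 reads, 100.0% of 17212 genes above 0), so reads per gene were recovered. A factor between heads was part of the deposited values. Gene names came from a table of current symbols that matched 17253 identifiers.

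In R 4.3.3, limma 3.58.1 was fitted to log2(RPKM + 1) (lmFit, eBayes with a trend), with all 21 heads in a single fit, a mean for each group and no covariate. The 10501 genes that reached 1 RPKM in 5 or more heads were tested, and p-values were adjusted by Benjamini-Hochberg over all of them in each of 6 comparisons, with a threshold of 0.05. Errors of fold changes are standard errors. A count test was not the main test because the deposited unit is RPKM, and voom on the recovered reads was an alternative. The settings changed in turn were the pseudocount (0.1), the filter (none, or a mean of 5 RPKM), scaling to the same 75th percentile or total, eBayes without a trend, sample quality weights, a fit of only the compared groups, the replicate number as a block, and leaving out each head in turn. A fit without starved replicate 3 and naive replicate 2 together was added after seeing the data. No pair of heads held the same library. Same-numbered heads of different groups are different flies. The 7 genes and all gene lists were chosen with earlier results of these data known. All 7 genes are named, together with each gene of the 4 lists of fat metabolism that passed the threshold and the 3 genes most similar to each of the 7. Where not stated otherwise, p-values set a difference of group means against the spread between single flies. In the main fit that spread was shared by all groups, although the SD of *CG5966* on the log2 scale was 2.76 in starved and 0.32 in 4 h heads. Tables and plots were made with Python 3.11.15, pandas 2.3.3 and matplotlib 3.10.9.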

Additional observations from a re-analysis of the deposited data

Results flagged for a closer look

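Each of the 7 genes was searched in each of the 4 groups for a head far from the others, which gave 28 tests on log2(RPKM + 1). Chance alone flags about 1 in 20 such groups. In 1 of the 28 a head stood apart: *Lsd-2* in 4 h replicate 1 was 28.8 RPKM, against 63.6 to 76.8 RPKM in the other 4 h heads, and its gap to the nearest head was 0.806 of the range, above the critical value of 0.710. The same head also had the lowest 4 h level of *Lsd-1*, 81.3 RPKM, of *Lip4*, 5.62 RPKM, and of *mdy*, 14.3 RPKM.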

How the results depend on the processing

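Leaving out each head in turn changed the number of the 7 genes called to between 0 and 1 in starved against naive heads, between 0 and 2 at 1 h against starved, between 1 and 4 at 4 h against starved and between 0 and 2 at 1 h against naive. It called none at 4 h against naive or against 1 h. The largest of these counts came without starved replicate 3 at both times against starved. Without starved replicate 3 and naive replicate 2 together, 1 gene was called in starved against naive heads, 2 at 1 h and 4 at 4 h against starved, and *CG5966* alone at 1 h and at 4 h against naive (1 gene each), and *mdy* in starved against naive heads was 0.015 rather than −0.44. Signs turned on leaving out a head for small differences. At 1 h against starved *Hsl* ran from −0.033 to 0.043. At 1 h against naive *bmm* ran from −0.19 to 0.48 and *Lip4* from −0.23 to 0.029. At 4 h against 1 h *Lsd-1* ran from −0.25 to 0.34, *Lsd-2* from −0.075 to 0.27 and *mdy* from −0.15 to 0.17.

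Among the other settings, sample quality weights called 3 of the 7 genes in starved against naive heads, 4 at 1 h and 6 at 4 h against starved, and 2 at 1 h and 3 at 4 h against naive. Over all tested genes these weights called 1840 in starved against naive heads (159 without them), 157 (58) at 1 h and 1883 (669) at 4 h against starved, 1679 (943) at 1 h and 2737 (357) at 4 h against naive, and 466 (9) at 4 h against 1 h. They gave −0.058 for *Hsl* at 1 h against starved, −0.69 for *bmm* at 1 h against naive and −0.30 for *mdy* at 4 h against 1 h. Scaling to the same total RPKM called 2 genes in starved and 2 in 4 h heads against naive and gave medians of all tested genes against naive of 0.28 in starved, 0.25 in 1 h and 0.30 in 4 h heads (−0.0015, −0.014 and −0.0076 without it). The share of called genes that were higher became 91.0%, 95.1% and 96.1% in these 3 comparisons, where it was 37.1%, 57.2% and 50.1% without this scaling. It gave −0.017 for *Hsl* at 1 h against starved and 0.20 for *Lip4* at 1 h against naive. With the same 75th percentile *Hsl* was −0.021 at 1 h against starved, and 0 genes were called at 1 h against naive. Without a filter 1 gene was called at 4 h against starved and 0 at 1 h against naive. A fit of only the compared groups called 0 at 1 h against starved, 0 at 1 h against naive and 1 at 4 h against naive, and at 4 h against starved it called *bmm* (adjusted p = 0.0441) and not *Lip4* (0.110). Voom called 0 at 1 h against starved and gave −0.0035 for *Lsd-1* at 4 h against 1 h. Causes were not tested. Of 420 values under these settings 379 kept their direction and their side of the threshold. When heads were left out 423 of 483 did so, and the 483 include the fit without starved replicate 3 and naive replicate 2 together.

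With the replicate number as a block, 0 genes were called at 1 h against starved, where *CG5966* was −4.61 (adjusted p = 0.0721), 1 was called at 4 h against starved, without *Lip4*, and 2 at 1 h against naive, with *mdy* (0.0465). Deviations of same-numbered heads correlated with r from −0.418 to 0.277 over 27 pairs, of which 8 exceeded 0.1. Differently numbered heads were not compared, so whether heads of the same number shared a factor was not tested. Each value of the 7 genes rested on at least 67 reads, and the spread between the 5 or 6 flies of a group limited the tests.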
